A study of Mus musculus with 5 samples.

Results

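Pdx1 and 7 other transcription factors that mark the beta or the alpha lineage of the islet were examined in neonatal mouse pancreas, 5 beta factors (Pdx1, Nkx6-1, Mafa, Mnx1 and Pax4) and 3 alpha factors (Irx1, Irx2 and Pou3f4). They were chosen by name, and each was read by 1 probe set, so all 8 were measured among 19938 genes. Whole pancreata of 3 Pdx1cKO mice and 2 control mice were taken at postnatal day 1 and read on Mouse Gene 1.0 ST arrays, with 1 array for each mouse. Pdx1cKO mice carried Pdx1loxP alleles and the Elastase-Cre transgene, whose promoter is active in exocrine cells, so that islet cells are not its target. The controls are labelled as not recombined and are described as coming from the same litter. The strain, and whether the controls carried Elastase-Cre or loxP alleles, are not stated in the sources at hand.

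Beta cells make insulin and alpha cells make glucagon, and both arise from precursors that bud from the ductal trunk. Pdx1 is required for the pancreas to form, is found early in the whole pancreatic epithelium and later mainly in beta cells, where it binds the insulin promoter. Nkx6-1 marks trunk progenitors and then beta cells, Mnx1 acts in the early bud and again in beta cells, Pax4 acts in endocrine precursors on the way to the beta and delta fates, and Mafa is a late activator of insulin transcription. Irx1 and Irx2, Iroquois homeobox factors, are found in alpha cells of the embryonic mouse islet, and Pou3f4, a POU homeobox factor, binds the glucagon promoter.

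The promoters of Pdx1, Nkx6-1 and Irx2 are shown because in these 3 genes all Pdx1cKO mice read lower than either control. Each is 300 bases of mouse GRCm38.p6 from RefSeq, 250 bases before and 50 bases after the start site, written 5′ to 3′ on the strand of the gene. The start site used for Irx2 lies inside the annotated span of the gene. Capitals mark the letters TAAT (the core that many homeobox factors bind), CACGTG (an E-box) and CCAAT, searched on both strands.
Pdx1, chr5:147269847-147270146, plus strand: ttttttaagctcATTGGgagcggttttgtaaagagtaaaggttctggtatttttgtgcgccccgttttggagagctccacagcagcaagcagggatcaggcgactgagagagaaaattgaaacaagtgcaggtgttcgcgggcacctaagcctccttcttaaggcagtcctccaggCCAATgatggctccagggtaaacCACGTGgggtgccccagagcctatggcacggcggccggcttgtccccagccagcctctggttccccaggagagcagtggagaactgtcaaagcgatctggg
Nkx6-1, chr5:101664662-101664961, minus strand: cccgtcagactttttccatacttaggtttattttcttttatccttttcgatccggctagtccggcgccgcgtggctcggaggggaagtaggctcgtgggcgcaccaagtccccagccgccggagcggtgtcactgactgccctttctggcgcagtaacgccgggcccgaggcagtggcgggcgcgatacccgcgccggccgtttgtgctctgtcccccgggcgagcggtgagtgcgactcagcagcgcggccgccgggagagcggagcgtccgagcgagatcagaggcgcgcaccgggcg
Irx2, chr13:72628570-72628869, plus strand: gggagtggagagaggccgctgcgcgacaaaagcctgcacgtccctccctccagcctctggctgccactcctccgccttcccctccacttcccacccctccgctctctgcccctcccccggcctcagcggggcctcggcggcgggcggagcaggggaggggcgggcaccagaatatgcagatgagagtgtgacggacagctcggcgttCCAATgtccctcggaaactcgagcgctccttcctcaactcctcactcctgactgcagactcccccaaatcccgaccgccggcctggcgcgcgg
The Pdx1 promoter held 1 CACGTG, with its first base at -51 from the start site, as did 7.15% of the 32851 promoters in the same table. It also held 2 CCAAT matches, at -238 and -74, and Irx2 held 1, at -43, where 37.4% of all promoters held at least 1. TAAT, found in 58.0% of promoters, was in none of these 3 windows, and Nkx6-1 held none of the 3 motifs. The GC content was 55.3% for Pdx1, 67.3% for Nkx6-1 and 69.0% for Irx2, against a median of 52.7% over all promoters. Promoters of Mnx1 and Pou3f4 were also matched by symbol, which makes 5 of the 8, and Mafa, Pax4 and Irx1 were not matched.

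Several features of the arrays moved with the groups or set 1 array apart. Control 2 carried transcripts of the gut, where Pdx1 is also made in the distal stomach and duodenum. The 11 measured stomach markers summed to intensities of 704 to 753 in the Pdx1cKO mice, 554 in control 1 and 12321 in control 2, and in control 2 a total of 8 of the 11 exceeded all other arrays by over 1 log2. For 11 intestinal markers the sums were 511 to 698 in the Pdx1cKO mice, 451 in control 1 and 2694 in control 2, and 4 of them exceeded all other arrays by over 1 log2. The sexes were not balanced, because Xist read 622 and 349 in Pdx1cKO mice 1 and 2, but 44.9 in Pdx1cKO mouse 3 and 53.4 and 33.5 in the controls. Liver markers had a summed intensity of 12877 to 32323 in the Pdx1cKO mice, against 3726 and 5362 in the controls, with all 9 measured markers higher in every Pdx1cKO mouse. Acinar markers, which define the exocrine cells that Elastase-Cre targets, had a summed intensity of 11109 to 19170 in the Pdx1cKO mice, against 73272 and 50457 in the controls, and all 11 measured lay below both controls in every Pdx1cKO mouse, with a median log2 fold change of -2.07. Cpa1, an acinar carboxypeptidase, was read on every array, at 1583, 2089 and 3255 in Pdx1cKO, against 10410 and 8231 in control. Duct and trunk genes had a summed intensity of 3725 to 4427 in Pdx1cKO, against 5937 and 10981 in control. Of the 10 measured, 9 had a negative log2 fold change, among them Sox9 (-0.66), the trunk progenitor factor, and Muc1 (-2.01). Every Pdx1cKO value lay below both controls in 5 of the 10, and Car2 was at 0.91. In control 2, the array with gut transcripts, 5 of the 10 were highest. Of these, Krt8 (3172, against 943 in control 1) and Krt19 (2516, against 949) exceeded all other arrays by over 1 log2. Car2 read 1531 there and 58.1 in control 1. Blood cell markers were higher in Pdx1cKO. Granulocyte markers summed to 1334 to 3606, against 447 and 458 in control, with 9 of 9 above both controls in every Pdx1cKO mouse, as were 4 of 4 erythroid markers (798 to 2412, against 353 and 346) and 5 of 6 lymphocyte markers (424 to 498, against 284 and 291). Of all genes, 11.7% lay below both controls in every Pdx1cKO mouse and 12.0% lay above both. The islet hormone Ins2 had at least 455 on every array. In whole tissue, fewer cells of a type and less RNA per cell cannot be told apart.

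Pdx1 was lower in all 3 Pdx1cKO pancreata and had the largest difference among the 8 factors, and Nkx6-1 and Irx2 were the others in which the groups did not overlap. None of the 8 passed limma's test after adjustment over all genes. The median log2 fold change was -0.12 for the 5 beta factors and -0.14 for the 3 alpha factors, against -0.0012 over all genes. These medians are the values of Mnx1 and Pou3f4, in both of which the groups overlapped. Mafa and Pax4 gave nearly the same reading on every array.

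The targeted gene, Pdx1 (probe set 10527565), read 48.4, 48.4 and 42.9 in Pdx1cKO mice 1, 2 and 3, against 67.9 and 113 in controls 1 and 2. The groups did not overlap, and the spread lay in the controls, with an SD of 0.0991 log2 in Pdx1cKO (n = 3) and 0.517 in the controls (n = 2). By limma the log2 fold change was -0.91 ± 0.255 (standard error), or 0.531 times the control level, with 95% limits of -1.65 and -0.18 and an adjusted p of 0.385. This fit takes the spread to be equal in both groups, although the SDs of Pdx1 differed. An exact two-sided permutation test gave p = 0.1, the smallest that 3 mice against 2 allow. A more negative log2 fold change was found in 248 of the 19938 genes. Control 2, with the higher Pdx1, was the array with gut transcripts, and their part in its Pdx1 reading was not tested. Against control 1 alone, where the stomach markers summed to less than in any Pdx1cKO mouse (although 2 of the 11, Gkn1 and Atp4b, were higher there), the log2 fold change was -0.55 (limma adjusted p = 0.101), and against control 2 alone it was -1.28 (limma adjusted p = 0.0242), in a fit that called 8.94% of all genes lower. Each of these 2 fits has a single control, whose spread is taken to equal that within Pdx1cKO. The sources at hand do not state which exons the loxP sites flank, so whether the probes lie in the deleted part is unknown. Pdx1 in islet cells, which Elastase-Cre does not target, is also read by this probe set. The lower acinar, duct and hormone readings and the higher blood and liver readings lay on the same Pdx1cKO arrays as the lower Pdx1 and Nkx6-1, and their part in these results was not tested.

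Nkx6-1, the trunk and beta cell factor (probe set 10531790), read 74.5, 76.0 and 70.8 in the Pdx1cKO mice, against 82.6 and 95.6 in the controls. Every Pdx1cKO value lay below both controls, and the difference between the group means was close to that between the 2 controls. By limma the log2 fold change was -0.27 ± 0.0802 (standard error), with 95% limits of -0.50 and -0.04 and an adjusted p of 0.411. Like Pdx1, Nkx6-1 was higher in control 2 than in control 1, by 0.21 log2. Relative to Nkx6-1 on the same array, Pdx1 was a further 0.64 log2 lower in Pdx1cKO than in control, with all 3 Pdx1cKO mice beyond both controls (exact two-sided permutation p = 0.1, the smallest possible). This is 1 of 7 such comparisons, which all reuse the same Pdx1 values, and the others add nothing to its own difference between the groups.

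The other beta factors were read at dim levels and differed little. Mafa (probe set 10429621) had 57.1, 54.0 and 53.9 in the Pdx1cKO mice, against 54.0 and 54.0 in the controls, which is a log2 fold change of 0.03 (95% confidence interval -0.07 to 0.12). Mnx1 (probe set 10528903) had 26.7, 26.4 and 26.0 in the Pdx1cKO mice, against 30.7 and 26.7 in the controls. Only control 1 was set apart in Mnx1, and the log2 fold change was -0.12 (95% confidence interval -0.31 to 0.08). Without control 2 it was -0.22 and passed (limma adjusted p = 0.033, again with a single control, in a fit that called 10.4% of all genes lower), and without control 1 it was -0.02. Pax4 (probe set 10543530) had 38.1, 38.2 and 38.1 in the Pdx1cKO mice, against 38.1 and 38.1 in the controls. Its log2 fold change was 0.0007, with a 95% confidence interval of -0.03 to 0.03, the narrowest interval of the 8. That width rests on exact ties, since 4 arrays held the median reading, and is no measure of precision.

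Among the alpha factors, Irx2 (probe set 10406005) read 70.7, 70.7 and 64.1 in the Pdx1cKO mice, against 78.7 and 75.7 in the controls. It was the alpha factor without overlap, with an SD of 0.0813 log2 in Pdx1cKO (n = 3) and 0.0394 in the controls (n = 2). By limma the log2 fold change was -0.17 ± 0.0586 (standard error), with 95% limits of -0.34 and -0.0045 and an adjusted p of 0.470. Irx1 (probe set 10410501), its neighbour in the Iroquois cluster, had 57.8, 59.2 and 56.1 in the Pdx1cKO mice, against 65.8 and 57.8 in the controls. The groups overlapped, since control 2 read the same as Pdx1cKO mouse 1 and below mouse 2, and the log2 fold change was -0.10 (95% confidence interval -0.29 to 0.10). Pou3f4 (probe set 10601459) had 41.5, 41.5 and 38.5 in the Pdx1cKO mice, against 41.5 and 48.2 in the controls. Here control 1 read the same as Pdx1cKO mice 1 and 2, and the log2 fold change was -0.14 (95% confidence interval -0.39 to 0.10). The adjusted p was 0.515 for both Irx1 and Pou3f4 (limma), and 0.515 for Mnx1, 0.687 for Mafa and 1.0 for Pax4.

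**Figure D1:**
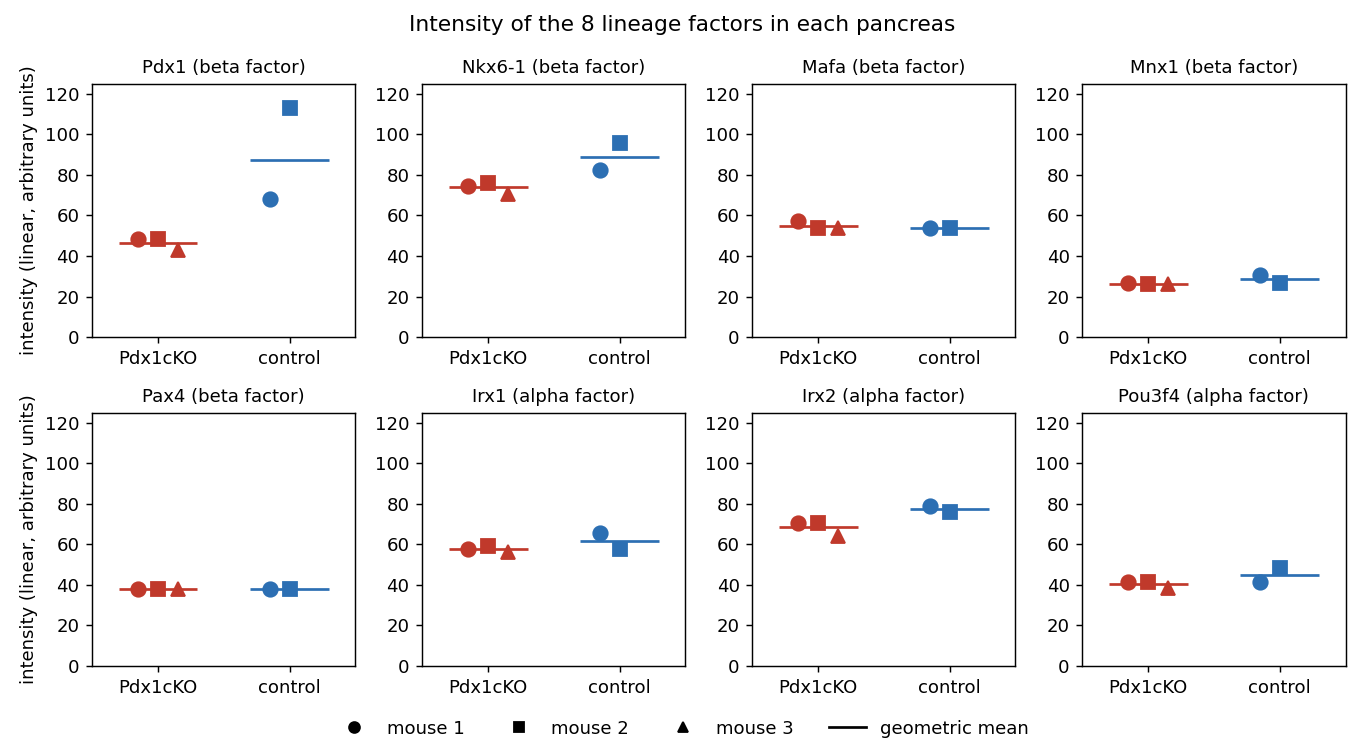
Intensity on a linear scale from 0 (vertical axis) of each of the 8 factors in the 3 Pdx1cKO mice (red, left) and the 2 control mice (blue, right), with the symbol giving the mouse number and lines the geometric means. Pdx1 lies at 42.9 to 48.4 in Pdx1cKO and at 67.9 and 113 in the controls, while Mafa and Pax4 are level.

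In counts, 6 of the 8 factors had a negative log2 fold change, as did 53.0% of all genes. Every Pdx1cKO value lay below both controls in 3 of the 8, against 11.7% of all genes, and above both in 0 of the 8, against 12.0%. These were the same 3 that had an unadjusted limma p under 0.05 (Pdx1 0.0267, Nkx6-1 0.0323 and Irx2 0.0465), where 5.04% of all genes were lower and 5.29% higher. After adjustment limma called 0 of the 8 and 0% of all genes in either direction, and the test that the methods name, run on the same values, also called 0 of the 8. With 8 genes, a single member moves these shares by a large step, and the list was not tested as a set. Without control 2 the count below the control was 5 of 8 (Irx1 and Mnx1 joined, background 33.3%), and without control 1 it was 4 of 8 (Pou3f4 joined, background 28.0%). Without Pdx1cKO mouse 1, 2 or 3 it was 4, 3 and 3 of 8, where 13.2%, 14.6% and 13.8% of all genes lay below both controls.

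**Figure D2:**
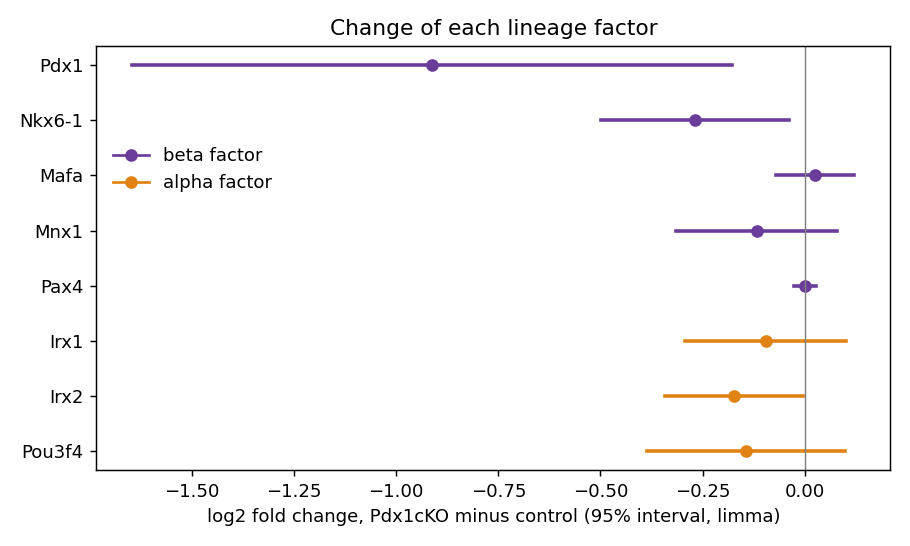
Log2 fold change of each factor, Pdx1cKO minus control. Points are limma estimates and lines their 95% confidence intervals, for beta factors (purple) and alpha factors (orange). The intervals take the spread to be equal in both groups. The intervals of Pdx1, Nkx6-1 and Irx2 lie below 0, and those of the other 5 span 0.

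Beta factors were then set against alpha factors. On each array the median over the factors of log2 intensity minus the control mean was -0.10, -0.12 and -0.14 for the beta factors in Pdx1cKO mice 1, 2 and 3, and -0.11, -0.11 and -0.22 for the alpha factors. The beta median was 0 in both controls, and the alpha median was 0.03 in control 1 and -0.03 in control 2. On every Pdx1cKO array the beta median was the value of Mnx1 and the alpha median that of Pou3f4. In the controls the beta median of 0 came from Mafa and Pax4, each equal in both. The comparison thus rests on a few dim genes. Beta minus alpha was 0.01, -0.01 and 0.08 in the Pdx1cKO mice, against -0.03 and 0.03 in the controls, so 2 of the 3 Pdx1cKO mice lay between the controls. The difference of the 2 median log2 fold changes was 0.03, less than the spread between arrays within a group (0.0442). It was not stable, since it was 0.13 without control 1, 0.0782 with a term for sex and -0.000725 without Pdx1cKO mouse 3. Within the beta factors the range was -0.91 to 0.03, and within the alpha factors -0.17 to -0.10. Pdx1 and Nkx6-1 thus lay below every alpha factor, and Mafa and Pax4 above every one.

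The readings shared some features that the choice of genes did not use. In 7 of the 8 factors Pdx1cKO mouse 3 alone was the lowest of the 5 arrays, as it was in 16.0% of all genes (11.1 to 25.9% for the other 4 arrays), and Pax4 was tied. In Mafa, 1 of the 7, the margin was slight, at 53.9 against 54.0 on 3 other arrays. All 7 measured islet hormones were also lowest in Pdx1cKO mouse 3. In lists described below, so were 4 of 11 paralogs, 6 of 19 other endocrine lineage factors and 6 of 15 beta cell genes. Pdx1cKO mouse 3 was the Pdx1cKO mouse with low Xist, as in the controls, and with the lowest liver sum of the Pdx1cKO mice. The part of these in the result was not tested. With a term for sex, which sets Pdx1cKO mouse 3 alone against the controls, Pdx1 was at -1.03, Nkx6-1 at -0.33 and Irx2 at -0.27 (limma adjusted p of 0.541 for Pdx1). The X-linked Pou3f4 was also lowest in Pdx1cKO mouse 3, at 38.5.

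The controls split the members. In control 2, Pdx1, Nkx6-1 and Pou3f4 were higher than in control 1, by 0.73, 0.21 and 0.21 log2. Mnx1, Irx1 and Irx2 were lower in control 2, by -0.20, -0.19 and -0.06 log2, and Mafa and Pax4 were equal. For 6 of the 8 factors, 2 or more arrays held exactly the median reading of the gene, as did 67.6% of all probe sets. The sources at hand do not say how these exact ties arose, and the level readings of Mafa and Pax4 and the overlaps in Pou3f4 and Mnx1 rest on them. Irx1 and Irx2 held ties too. In Irx2 they were Pdx1cKO mice 1 and 2, at 70.7 each, so its spread within Pdx1cKO includes a tie. In mean level 7 of the 8 lay below the median of all genes, from the 13.9 percentile for Mnx1 to the 49.9 percentile for Irx2, with Nkx6-1 at 53.7 and Pdx1 at 43.2. Gkn2, a gastric gene, read 25.1 to 26.4 in Pdx1cKO and 26.4 in control 1, and the Y-linked Eif2s3y read 22.4 and 24.9 in the Pdx1cKO mice with high Xist. Mnx1 at 26.0 to 30.7 was close to these readings, and there are no detection calls, so whether the dimmest factors were above background is unknown.

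**Figure D3:**
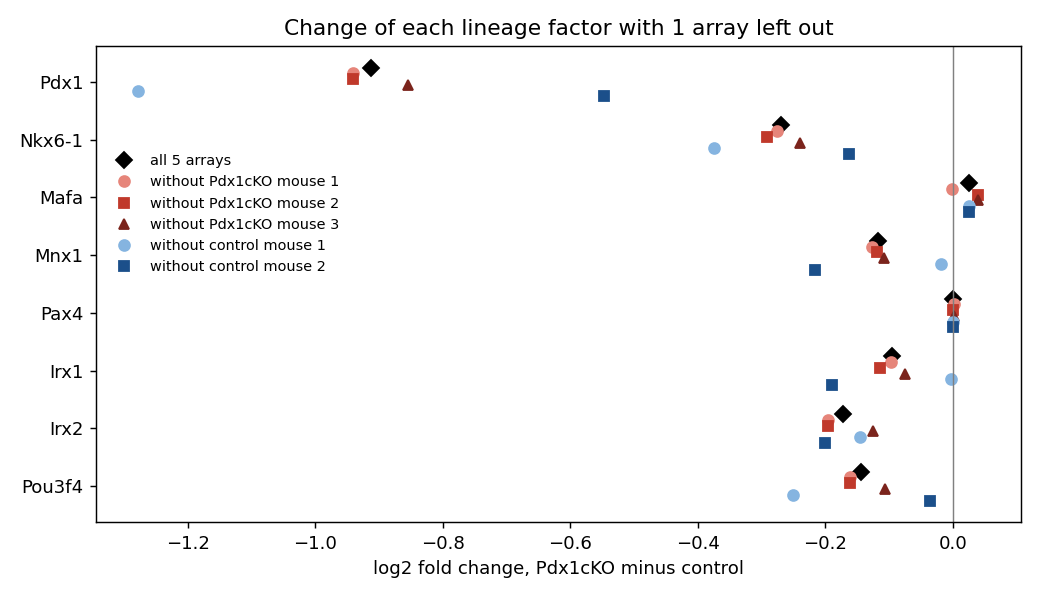
Log2 fold change of each factor, Pdx1cKO minus control (horizontal axis), with all 5 arrays (diamonds) and with 1 array left out (red, a Pdx1cKO mouse; blue, a control). Pdx1 runs from -1.28 to -0.55, with both ends set by leaving out a control, and the other 7 stay between -0.37 and 0.04.

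By root mean square difference over the 5 arrays, in log2 minus the control mean, the 5 genes most like Pdx1 were Krt23 (0.0627), Slc37a1 (0.0677), Vill (0.0867), Cldn7 (0.0890) and Fam83b (0.0912). Krt23, a keratin, had intensities of 38.0, 39.4 and 33.5 in the Pdx1cKO mice, against 49.8 and 93.4 in the controls. Slc37a1, a sugar phosphate transporter, had 87.6, 90.4 and 75.2, against 113 and 212. All 5 were lower in every Pdx1cKO mouse than in both controls, at 0.499 to 0.543 times the control level. All 5 were also higher in control 2 than in control 1, by 0.72 to 0.95 log2. Both features follow from the choice of genes by closeness to Pdx1 and are no separate result. The 8 factors themselves were left out of this search.

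Paralogs of the 8 factors, from a list of 12, had a median log2 fold change of -0.08 over the 11 measured. Limma called 0 of them after adjustment. In every Pdx1cKO mouse 4 lay below both controls, against 11.7% of all genes, and 0 lay above, against 12.0%. Pax6, a paired homeobox factor of all islet cells, had 59.6, 56.3 and 58.2 in Pdx1cKO, against 84.0 and 76.6 in control, which limma put at -0.47 ± 0.0537 log2 (standard error, adjusted p = 0.191). The other 3 were Irx3 (-0.06), Irx6 (-0.18) and Nkx6-2, a relative of Nkx6-1 (-0.44). Nkx6-3, a factor of the stomach, stood out by array and not by group, with 43.0 to 45.3 in Pdx1cKO, 45.3 in control 1 and 116 in control 2.

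Of 24 other endocrine lineage factors listed, 19 were measured. Limma called 0 lower and 0 higher after adjustment. Lower at an unadjusted limma p under 0.05 were 4 of the 19, where the share among all genes was 5.04%. Against a share of 11.7% among all genes, 7 of the 19 lay below both controls in every Pdx1cKO mouse. The median log2 fold change was -0.15, close to those of the beta and the alpha factors. Nkx2-2, which acts in beta and alpha cell formation, had 50.1, 53.0 and 50.0 in Pdx1cKO, against 82.5 and 72.0 in control, which limma put at -0.60 ± 0.0741 log2 (standard error, adjusted p = 0.205). Rfx6, a factor of islet cell formation, was at -0.45 (limma adjusted p = 0.228) and Foxa2, a forkhead factor that acts upstream of Pdx1, at -0.49 (limma adjusted p = 0.385). Pax6, given above, is the fourth. Among the precursor factors, Neurog3 was at -0.41 and Neurod1 at -0.38 (limma adjusted p of 0.515 for each), while Isl1 was at 0.01. Neurog3 and Neurod1 were set apart mainly by control 2, the array with gut transcripts. Neurog3 read 39.6, 41.5 and 34.1 in Pdx1cKO, against 41.6 in control 1 and 61.7 in control 2. Neurod1 read 35.2, 39.3 and 41.7 in Pdx1cKO, against 42.4 in control 1 and 59.9 in control 2.

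Genes that beta cells use were also listed, many of them known to be bound by Pdx1, Nkx6-1 or Mafa, and 15 of 18 were measured. Limma called 0 after adjustment, and the median log2 fold change was -0.26. At an unadjusted limma p under 0.05, 5 were lower, against 5.04% of all genes. In every Pdx1cKO mouse 7 lay below both controls, against 11.7% of all genes. Glp1r, the incretin receptor, had 74.2, 89.5 and 92.5 in Pdx1cKO, against 197 and 182 in control, which limma put at -1.15 ± 0.122 log2 (standard error, adjusted p = 0.183). Slc30a8, the zinc transporter of insulin granules, was at -0.61, Abcc8, a subunit of the ATP-sensitive potassium channel, at -0.59 and Ins2 at -0.49. The 3 with a positive log2 fold change were Npy, a neuropeptide, at 1.54, Slc2a2, a glucose transporter of beta cells that liver also makes, at 0.48, and Nnat at 0.37. Npy read 895, 116 and 335 in Pdx1cKO, against 89.2 and 142 in control, so the groups overlapped.

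Of 9 alpha cell genes listed, 4 were measured. Gcg, the glucagon gene, had 1508, 1127 and 1104 in Pdx1cKO, against 2594 and 2650 in control, which limma put at -1.09 ± 0.170 log2 (standard error, adjusted p = 0.236). Slc38a5, an amino acid transporter, was at -0.63 and Sstr2, a somatostatin receptor, at 0.23. Ttr, which liver also makes in quantity, was at 1.41 with higher liver markers on the same arrays. Over the 7 measured islet hormones the median log2 fold change was -1.06. All 7 lay below both controls in every Pdx1cKO mouse, as did 11.7% of all genes. The Pdx1 log2 fold change was 0.15 above that median, and those of the other 7 factors were nearer to 0. These sizes come from probe sets of different brightness and were not tested against each other.

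**Figure D4:**
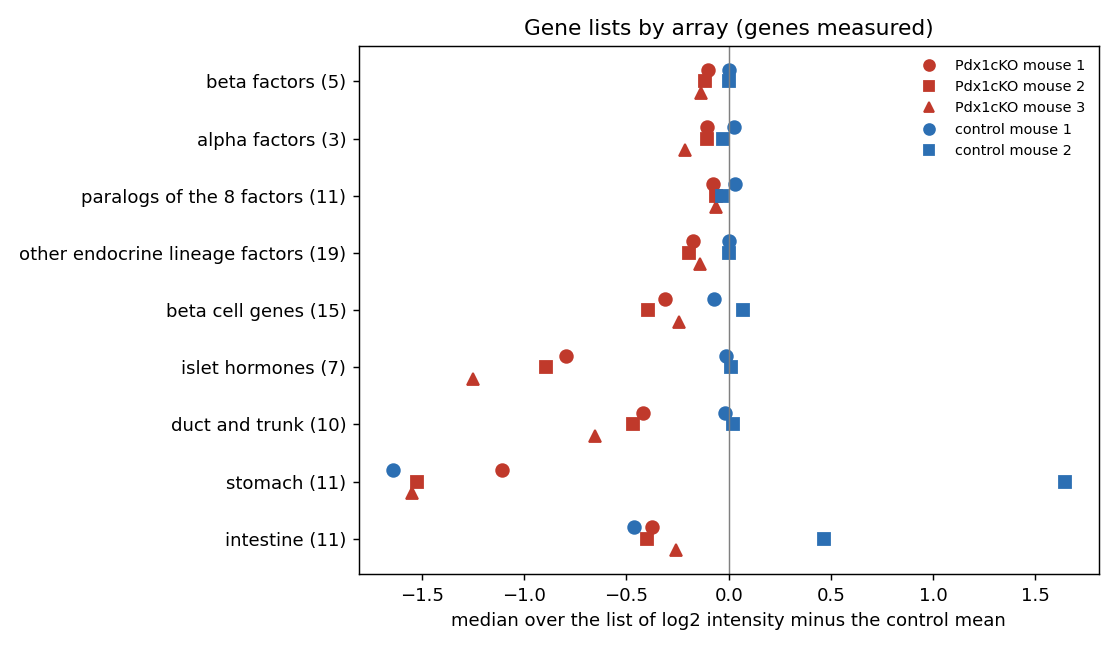
Median over each gene list of log2 intensity minus the control mean (horizontal axis), for the 3 Pdx1cKO arrays (red) and the 2 control arrays (blue), with the number of genes measured in brackets and the symbol giving the mouse. Beta and alpha factors lie at -0.10 to -0.22 in Pdx1cKO, islet hormones at -0.80 to -1.25, and stomach genes set control 2 apart at 1.64.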

How the data were processed

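Total RNA of whole pancreas was labelled and hybridised by the authors to Mouse Gene 1.0 ST arrays and analysed with GeneSpring GX 12.1. They deposited linear intensities of 28853 probe sets. How background, summarization and normalization were handled is not given in the sources used here. Medians of the 5 arrays, 61.0 to 61.9, were nearly equal. Precision is limited by how few mice there were.

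Samples were grouped by their titles. Log2 was taken with no pseudocount or further scaling. The platform annotation gave 21789 probe sets with 1 gene symbol, 1621 with several and 5443 unnamed here, and 21698 of the first matched RefSeq by Entrez gene with 0 symbols changed. Probe sets of 1 gene were averaged into 19938 genes. Pdx1cKO was compared with control with limma 3.58.1 in R 4.3.3 (lmFit, eBayes) with Benjamini-Hochberg adjustment over all genes at 0.05, and the step was tested on simulated data. Exact permutation tests over mice were two-sided. Python 3.11.15 and pandas 2.3.3 read the files. No build is named with the values, so gene coordinates are not given beyond those of the promoter windows.

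The members and gene lists were chosen with earlier results of these data known. Genes named were the 8 factors, their paralogs, the 4 genes with the smallest p in each further list, the 5 genes nearest to Pdx1 and markers of other tissues. Neurog3, Neurod1, Isl1, Slc2a2, Npy, Nnat, Gkn1 and Atp4b were named after their values were seen. Alternatives were 2 filters on dim genes, quantile normalization, median scaling, single and brightest probe sets, eBayes with trend, array weights, the methods' t-test, a replicate block, a sex term and leaving out each mouse. Genes listed but not named by a probe set of their own were not analysed here. Histology, RT-PCR and explant data were not used here.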

Additional observations from a re-analysis of the deposited data

How the results depend on the processing

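The log2 fold changes of Pdx1, Nkx6-1, Mnx1, Irx1, Irx2 and Pou3f4 were negative under each alternative that tested them (Pdx1 under 15, at -1.28 to -0.55). Each factor has 1 probe set, so single and brightest probe sets, the dim-gene filters, eBayes with trend and the t-test cannot change these values. The replicate block gave Pdx1 the same value as leaving out Pdx1cKO mouse 3 (-0.86), so these 2 are not separate checks. Among genes above the median level Nkx6-1 alone was tested, and Mnx1 was not above the lower quartile. Pax4 was at -0.0216 with median scaling, and Mafa at -0.0028 with the sex term and at -0.0014 without Pdx1cKO 1, opposite in sign to the values with all 5 mice.

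Leaving out 1 mouse gave log2 fold changes of -1.28 to -0.55 for Pdx1, -0.37 to -0.16 for Nkx6-1, -0.0014 to 0.0402 for Mafa, -0.22 to -0.0189 for Mnx1, 0 to 0.001 for Pax4, -0.19 to -0.0027 for Irx1, -0.20 to -0.13 for Irx2 and -0.25 to -0.0363 for Pou3f4. It gave beta medians of -0.16 to -0.0189, alpha medians of -0.19 to -0.11, a beta minus alpha median of -0.000725 to 0.13, 0 to 1 of the 8 called (Pdx1 without control 1, Mnx1 without control 2), and 3 to 5 with no overlap, a count chosen after seeing the data. Over all genes 0 to 2072 were then lower and 0 to 1604 higher, all called without a control. By the methods' t-test 7 genes were lower and 3 higher, none of them among the 8.

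The beta median was -0.14 with median scaling, -0.0929 with quantile normalization and -0.14 with the sex term, under which the alpha median was -0.22 and their difference 0.0782. Numbers in the titles are not said to mark pairs, and deviations of same-numbered mice correlated at 0.0325 and -0.0030. With the replicate block Pdx1 was at -0.86 (limma adjusted p = 0.729), Nkx6-1 at -0.24, and none of the 8 was called. The causes were not tested.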

Other observations

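Mnx1 and Pou3f4 are also made by neurons. The 7 measured neuronal genes, among them Stmn2 and Tubb3, summed to intensities of 2666, 1247 and 2526 in Pdx1cKO mice 1, 2 and 3, against 1115 and 1427 in the controls. Pdx1cKO mouse 2 lay between the controls, and mice 1 and 3 above both. Of the 7 genes 6 had a positive log2 fold change, with a median of 0.52, and 1, Stmn2, lay above both controls in every Pdx1cKO mouse (1435, 643 and 1247, against 491 and 620). Their part in the Mnx1 and Pou3f4 readings was not tested. Of the 9 measured mesenchymal genes, 0 had a negative log2 fold change, against 53.0% of all genes, and the median was 0.28. In 4 of the 9 every Pdx1cKO value lay above both controls, against 12.0% of all genes.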
